A study of Mus musculus with 12 samples.

Results

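The heat shock response genes were examined in whole liver RNA of mice fed ethanol. They were the 10 genes Hspa1a, Hspa1b, Hspa8, Hsph1, Hspb1, Hsp90aa1, Dnajb1, Bag3, Hspd1 and Hspe1, taken by their symbols in GENCODE release M21 from the 54232 genes of the count table, and all 10 passed the filter on low counts that left 14168 genes for the tests. RNA sequencing was performed on total liver tissue of the intragastric model of alcohol-associated steatohepatitis (ASH), with 5 pair-fed (PF) and 7 alcohol-fed (AF) livers and 1 library per liver. All were male C57BL6/J mice with an age of 8 weeks in the labels, and the labels name no altered allele. AF mice were given ethanol into the stomach, raised to 27 g/kg/day over 8 weeks, with a weekly binge of 5 g/kg. Both groups received a high-fat liquid diet, that of the PF mice being matched in calories. According to the methods, part of the calories in the regimen came from a solid Western diet. The methods also state that the mice were killed 1 day after their last binge, so the levels describe that time only. The question was which genes of the response were higher or lower in AF than in PF livers. Levels are given as CPM, the reads of a gene scaled to a common library size, after scaling by TMM, edgeR's correction for differences in library composition.

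Heat shock proteins are chaperones that bind unfolded proteins and help them fold, keep them soluble or pass them on for breakdown. When unfolded proteins accumulate, heat shock factor 1 (HSF1) binds heat shock elements in the promoters of these genes and raises their transcription within a short time, and the RNAs are lost again once the stress ends. Heat, ethanol and oxidative stress are known triggers. Hspa1a and Hspa1b encode the inducible HSP70, Hspa8 its constitutive relative, and Hspd1 and Hspe1 the chaperonin of the mitochondrial matrix and its lid.

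The heat shock elements of the genes whose levels are compared most closely are shown first. RefSeq promoter windows of GRCm38.p6, from 250 bases before to 50 bases after a transcription start, were at hand for 8 of the 10 genes. They were searched on both strands for units of GAA and TTC that alternate with 2 bases between them, so the motif with 2 units reads GAANNTTC or TTCNNGAA, and a run with more units contains the shorter ones. At least 1 pair of units was found in 7 of the 8 genes, and Dnajb1 had none in its windows. Such a pair was in 15.1% of all 32851 windows and in 17% of the 27025 genes with windows, so its presence alone is common. A run of 3 units was found in Hsph1, Hspd1 and Hspe1, against 0.603% of all windows and 0.662% of these genes. A run of 4 units was found in Hspd1 and Hspe1, at a site that both share. Such a run was in 8 windows of 32851, which include those with the shared site. A match describes letters in the window and was not tested as a binding site. The sequences below are written 5′ to 3′ on the strand of the gene, with the matched units and the bases between them in capitals. The first runs over the 250 bases upstream of Hspa1a (minus strand, chr17:34972157-34972406), with its pair of units beginning 104 bases before the start, and the same stretch of Hspa1b (chr17:34959239-34959488) differed from it at 3 of 250 bases, none of them in the motif. The second runs over the 250 bases upstream of Hspb1 (plus strand, chr5:135887669-135887918), the gene that differed between the groups, with pairs beginning 117 and 97 bases before the start. The last ones are 30 bases of Hsph1 (minus strand, chr5:149636280-149636309), where the run with 3 units begins 15 bases after the start, and the 30 bases with the 4 units that Hspe1 and Hspd1 have in common (chr1:55088053-55088082, read here on the plus strand, that of Hspe1).
Hspa1a: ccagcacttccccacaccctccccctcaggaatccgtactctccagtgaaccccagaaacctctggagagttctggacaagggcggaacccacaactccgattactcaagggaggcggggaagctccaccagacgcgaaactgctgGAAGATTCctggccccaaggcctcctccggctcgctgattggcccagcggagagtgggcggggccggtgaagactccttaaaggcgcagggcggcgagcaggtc
Hspb1: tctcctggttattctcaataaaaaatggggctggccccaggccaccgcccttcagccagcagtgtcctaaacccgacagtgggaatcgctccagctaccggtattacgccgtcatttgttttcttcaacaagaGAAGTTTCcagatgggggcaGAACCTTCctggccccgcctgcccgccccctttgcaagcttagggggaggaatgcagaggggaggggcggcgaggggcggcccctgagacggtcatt
Hsph1: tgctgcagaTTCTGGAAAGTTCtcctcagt
Hspe1 and Hspd1: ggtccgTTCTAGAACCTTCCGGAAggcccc

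Of the 10 genes, only Hspb1, which encodes a small heat shock protein, was called, and it was higher in AF livers. No member was called lower. The other 9 did not pass the threshold of 0.05 on the adjusted p, although 8 of the 10 had a negative log2 fold change. Over all 14168 genes, 39.8% were called, with 22.0% higher and 17.8% lower in AF livers, each as a share of the genes tested. The median log2 fold change of the members was −0.32, against 0.04 over all genes, of which 46.8% were negative. The median size of the change without its sign was 0.38 for the members and 0.354 for all genes. At an unadjusted p under 0.05 in edgeR, 3 members would pass, namely Hspb1, Hsph1 and Hspe1, and DESeq2 called 2 lower, Hsph1 (adjusted p = 0.0453) and Hspe1 (adjusted p = 0.0458), with 23.3% of all genes higher and 20.7% lower by DESeq2. The count of members called lower by edgeR became 3 without PF replicate 3 (Hspa8, Hsph1 and Dnajb1), 2 without AF replicate 5 (Hsph1 and Hspe1) and 1 without AF replicate 6 (Hspe1). In these 3 fits edgeR called 2167 of 14407, 2488 of 13969 and 2923 of 14103 genes lower. None of the 10 had groups that did not overlap, against 17.7% of all genes. The CPM values of the 10 genes added up to between 1523 and 2435 in PF and between 1421 and 2274 in AF livers.

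**Figure D1:**
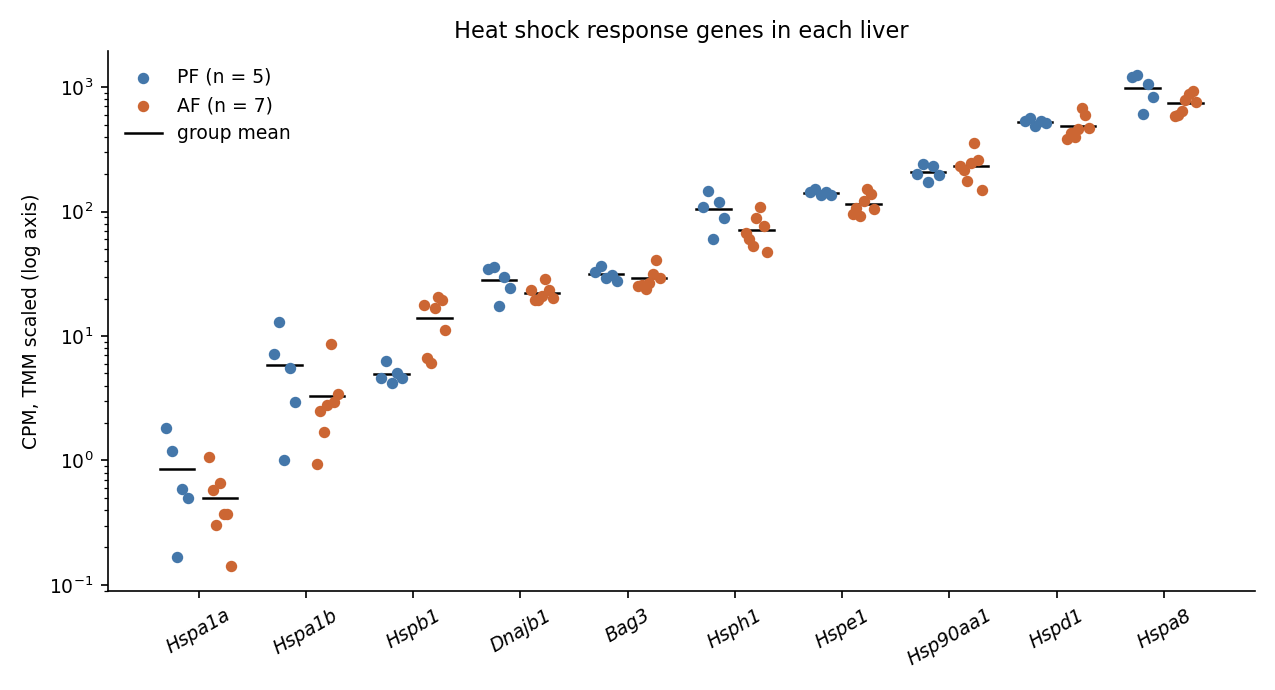
CPM of the 10 heat shock response genes in each liver on a log axis, with 5 PF and 7 AF points per gene in order of replicate and a line at the arithmetic mean of each group. Hspb1 is the gene whose AF points lie mostly above the PF points, and for Hspa1a and Hspa1b the points of a group spread over about an order of magnitude.

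The direction of small differences depended on the scaling. TMM factors lay between 0.832 and 0.901 in PF and between 0.880 and 1.364 in AF livers, so the composition of the AF libraries differed more among themselves. Scaled by library totals alone, the median log2 fold change of all genes moved from 0.04 to 0.40, and Dnajb1, Bag3, Hspd1 and Hspe1 changed sign. Hspa1a and Hspa1b stayed negative there, at −0.30 and −0.48, as did Hspa8 and Hsph1. On that scaling edgeR called 45.5% of all genes higher and 6.63% lower in AF livers. A negative log2 fold change below is therefore a difference relative to the bulk of genes in the same livers. In whole tissue, fewer cells of a type and less RNA per cell cannot be told apart.

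**Figure D2:**
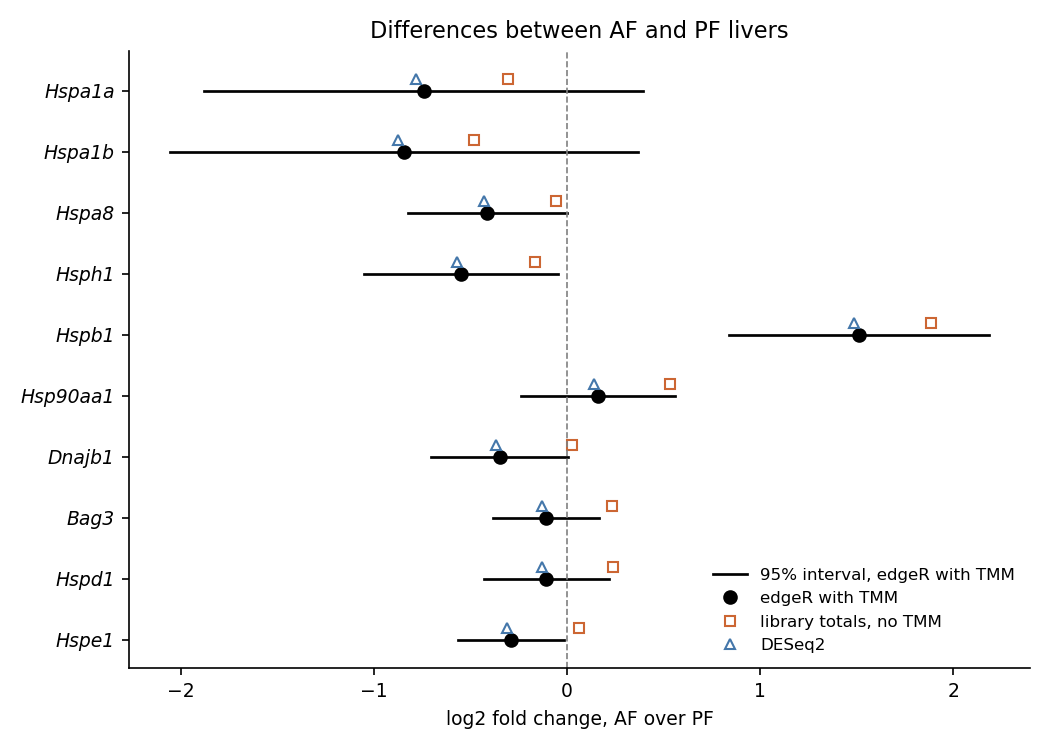
Log2 fold change of AF over PF for each of the 10 genes, with the edgeR estimate and its 95% interval on TMM scaling (filled circles and lines), the DESeq2 estimate (triangles) and the edgeR estimate on library totals (squares). The squares lie to the right of the circles for every gene, and Hspb1 is the gene whose interval lies farthest from 0, from 0.84 to 2.18.

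Hspb1 (ENSMUSG00000004951, chromosome 5, 135887919 to 135889563, plus strand) encodes HSP25, the mouse counterpart of human HSP27, a small heat shock protein that holds unfolding proteins and binds the actin cytoskeleton. Its level was 4.57, 6.36, 4.16, 5.07 and 4.57 CPM in PF replicates 1 to 5. In AF replicates 1 to 7 it was 17.8, 6.61, 6.04, 16.9, 20.6, 19.4 and 11.1 CPM. AF replicates 2 and 3 were at the upper end of the PF livers, and the other 5 AF livers were well above them, with 6 of 7 AF livers higher than every PF liver. The mean was 4.95 ± 0.851 CPM (SD) over the 5 PF livers against 14.1 ± 6.09 CPM (SD) over the 7 AF livers. Hspb1 rose 2.85-fold (95% interval 1.79 to 4.54), a log2 fold change of 1.51 with a standard error of 0.313 and an edgeR adjusted p of 0.00259. The exact two-sided permutation test over every assignment of the 12 livers to the groups gave p = 0.00631, where the smallest possible is 0.00126. The highest AF liver had 3.41 times the level of the lowest, against 1.53 times in PF. The raw counts were 93 to 139 in PF and 172 to 724 in AF livers.

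Markers of several other cell types were also called higher in AF livers, and cells other than hepatocytes also express Hspb1. The counts of calls below stand against 22.0% of all genes called higher and 17.8% called lower. Of 6 stellate cell and fibrosis markers, 5 were called higher and none lower, and their summed level was 38.7 to 94.3 CPM in PF and 81.3 to 496 CPM in AF livers. Of 5 bile duct markers, 4 were called higher and none lower, with 49.5 to 243 CPM in PF and 70.2 to 1089 CPM in AF livers. Of 6 recruited macrophage markers, 4 were called higher and none lower, with 221 to 546 CPM in PF and 512 to 2112 CPM in AF livers. Of 6 hepatocyte markers, 3 were called lower and none higher, with 96677 to 141661 CPM in PF and 46810 to 100846 CPM in AF livers, so the defining markers of liver were abundant in every library. Of 5 Kupffer cell markers, 4 were called higher and none lower, with 573 to 777 CPM in PF and 776 to 2374 CPM in AF livers. Of 5 proliferation markers, 3 were called higher and none lower, with 13.2 to 54.6 CPM in PF and 13.9 to 155 CPM in AF livers. Of 5 markers of sinusoidal endothelium, 1 was called higher and none lower, with 112 to 244 CPM in PF and 151 to 249 CPM in AF livers. Of 5 T cell markers, none was called higher and 1 lower, with a summed level of at least 5.66 CPM in PF and 2.23 to 4.81 CPM in AF livers. No call was made among the 6 neutrophil markers, with 50.6 to 763 CPM in PF and 43.3 to 169 CPM in AF livers. The same held for the 4 B cell markers (2.36 to 6.37 CPM in PF, 1.11 to 3.46 CPM in AF). It also held for the 4 red blood cell markers (15.2 to 39.6 CPM in PF, 24.3 to 107 CPM in AF). The summed levels of every list but the T cell markers overlapped between the groups. All markers of these lists passed the filter on low counts. The part of these cells in the level of Hspb1 was not tested.

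The inducible HSP70 genes were low and varied widely among the livers of both groups. Hspa1b (ENSMUSG00000090877, chromosome 17, 34956436 to 34959238, minus strand) was at 7.13, 12.8, 0.999, 5.58 and 2.94 CPM in PF replicates 1 to 5. In AF replicates 1 to 7 it was at 0.933, 2.50, 1.70, 2.78, 8.63, 2.98 and 3.41 CPM. The highest liver had 12.9 times the level of the lowest in PF and 9.26 times in AF, and the groups overlapped almost entirely, since 1 AF liver lay below all PF livers and none above them. The means were 5.90 ± 4.55 CPM (SD, 5 PF livers) against 3.28 ± 2.50 CPM (SD, 7 AF livers). The log2 fold change of −0.84 had a 95% interval from −2.05 to 0.37 and an edgeR adjusted p of 0.244. This interval includes both a fall to 0.241 of the PF level and a rise to 1.29 of it. The log2 fold change was −0.34 without PF replicate 2, the highest PF liver, and −1.31 without AF replicate 5, the highest AF liver, and was not past the threshold in either fit.

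Hspa1a (ENSMUSG00000091971, chromosome 17, 34969190 to 34972156, minus strand), its near-identical neighbour, was lower still. It was at 1.82, 1.19, 0.167, 0.589 and 0.497 CPM in PF and at 1.06, 0.577, 0.304, 0.656, 0.370, 0.372 and 0.141 CPM in AF livers in order of replicate. These levels rest on 4 to 41 reads per library, so counting error alone is large. The means were 0.852 ± 0.655 CPM (SD, 5 PF livers) against 0.497 ± 0.302 CPM (SD, 7 AF livers), and the log2 fold change was −0.74 (95% interval −1.88 to 0.40, edgeR adjusted p = 0.275). It was −0.28 without PF replicate 1 and −1.05 without AF replicate 1, the highest livers of their groups, and −0.14 by limma-voom with sample quality weights, and none of these was past the threshold. Among 50-base stretches of the Hspa1a transcripts, 58.8% were also in Hspa1b, and 62.3% of those of Hspa1b were in Hspa1a. How the counting treated reads that fit both is not given in the sources used here, so the split between the genes is uncertain and both levels may be too low. With the counts of both genes added before the test, the log2 fold change was −0.83 with an edgeR adjusted p of 0.20. Hspa1a also lies across Gm20481 on the opposite strand, which had 0 counts in the 12 livers.

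Hspa8 (ENSMUSG00000015656, chromosome 9, 40800984 to 40810087, plus strand), the constitutive HSP70 of the cytosol, which also strips clathrin from vesicles and serves chaperone-mediated autophagy, had the highest level of the 10 genes. It was at 1198, 1245, 613, 1057 and 826 CPM in PF and at 588, 598, 649, 784, 885, 932 and 760 CPM in AF livers. PF replicate 3 was the lowest PF liver, and 2 AF livers lay below it. The means were 988 ± 265 CPM (SD, 5 PF livers) against 742 ± 136 CPM (SD, 7 AF livers), and the log2 fold change was −0.41 (standard error 0.192, 95% interval −0.82 to 0.00, edgeR adjusted p = 0.101). On library totals it was −0.058 (edgeR adjusted p = 0.788). Of the 50-base stretches of Hspa8, 39.4% were shared with other annotated transcripts, led by Gm15459, to which 56 reads were counted in all 12 livers against 273950 for Hspa8.

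Hsph1 (ENSMUSG00000029657, chromosome 5, 149614287 to 149636376, minus strand) encodes an HSP110 protein that exchanges nucleotides on HSP70. It was at 109, 147, 60.1, 120 and 88.2 CPM in PF and at 66.9, 59.9, 53.0, 89.3, 109, 75.9 and 47.0 CPM in AF livers. Again PF replicate 3 was the lowest PF liver, and 3 AF livers lay below it. The means of 105 ± 32.9 CPM (SD, 5 PF livers) against 71.6 ± 21.9 CPM (SD, 7 AF livers) differed by a log2 fold change of −0.55 (standard error 0.233, 95% interval −1.05 to −0.05). The edgeR adjusted p was 0.0753 and the exact permutation p was 0.0758, so the difference was not past the threshold.

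The cofactors Dnajb1 and Bag3 of the HSP70 cycle did not differ past the threshold. Dnajb1 (ENSMUSG00000005483, chromosome 8, 83608193 to 83612653, plus strand), the main stress-induced J-domain protein, was at 34.7, 35.7, 17.3, 29.8 and 24.3 CPM in PF and at 23.3, 19.3, 19.5, 21.0, 29.0, 23.4 and 20.1 CPM in AF livers. All 7 AF livers lay inside the range of the PF livers, whose lowest was again PF replicate 3. Its log2 fold change was −0.35 (95% interval −0.70 to 0.01, edgeR adjusted p = 0.107). Bag3 (ENSMUSG00000030847, chromosome 7, 128523616 to 128546981, plus strand), which releases substrates from HSP70 and hands them to selective autophagy, was at 31.3 ± 3.36 CPM (SD, 5 PF livers) against 29.0 ± 5.74 CPM (SD, 7 AF livers). AF replicate 6 had the highest Bag3 level of all livers, 40.7 CPM, while 4 AF livers lay below all PF livers. The log2 fold change of −0.11 had a 95% interval from −0.38 to 0.17 and an edgeR adjusted p of 0.519, and it was −0.21 without AF replicate 6 and −0.051 without PF replicate 2, not past the threshold in either fit. Bag3 shares 612 bases with 2610306O10Rik on the same strand, to which 53 reads were counted in the 12 livers against 9879 for Bag3.

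Hsp90aa1 (ENSMUSG00000021270, chromosome 12, 110690605 to 110702728, minus strand), the inducible HSP90 of the cytosol, which matures kinases and steroid receptors, was the other gene with a positive log2 fold change. It was at 200, 239, 172, 233 and 197 CPM in PF and at 231, 214, 176, 246, 354, 260 and 148 CPM in AF livers. AF replicate 5 was the highest and AF replicate 7 the lowest of all 12 livers, so the spread of the AF group (2.39 times from lowest to highest) was wider than that of the PF group (1.39 times). The log2 fold change was 0.16 (95% interval −0.24 to 0.56, edgeR adjusted p = 0.511). It was 0.033 without AF replicate 5 and 0.25 without AF replicate 7. On library totals it was 0.53 with an edgeR adjusted p of 0.0461.

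The mitochondrial pair spread more widely in the 7 AF than in the 5 PF livers, from lowest to highest 1.78 against 1.14 times for Hspd1 and 1.65 against 1.12 times for Hspe1, a difference that was not tested. A wider AF spread was not particular to the pair, since mitochondrial Hspa9 had an SD of 24.5 CPM in PF and 202 CPM in AF livers. Hspd1 (ENSMUSG00000025980, chromosome 1, 55077835 to 55088243, minus strand), which encodes HSP60, was at 534, 560, 491, 537 and 516 CPM in PF and at 385, 427, 399, 463, 683, 599 and 472 CPM in AF livers. AF replicates 5 and 6 were above all PF livers and the other 5 AF livers were below them all. The means were 528 ± 25.8 CPM (SD, 5 PF livers) against 490 ± 111 CPM (SD, 7 AF livers), and the log2 fold change was −0.11 (95% interval −0.43 to 0.22, edgeR adjusted p = 0.589). It was −0.20 without AF replicate 5 and −0.053 without AF replicate 1, not past the threshold in either fit. Hspe1 (ENSMUSG00000073676, chromosome 1, 55088132 to 55091307, plus strand), which encodes HSP10, was at 144, 151, 135, 145 and 135 CPM in PF and at 94.9, 107, 92.2, 123, 152, 139 and 104 CPM in AF livers. AF replicate 5 was again the highest, and 5 AF livers lay below all PF livers. The log2 fold change was −0.29 (standard error 0.127, 95% interval −0.56 to −0.02, edgeR adjusted p = 0.0827), and the exact permutation p was 0.0417. Hspd1 and Hspe1 lie head to head on opposite strands, and the annotated genes overlap by 112 bases, so without a stated strand setting reads in that overlap are uncertain.

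Compared per kilobase of exon, the order of the genes in PF livers was Hspa8 (230 CPM per kb), Hspd1 (200 CPM per kb), Hspe1 (96.3 CPM per kb), Hsp90aa1 (53.0 CPM per kb), Hsph1 (14.4 CPM per kb), Bag3 (12.2 CPM per kb), Dnajb1 (8.85 CPM per kb), Hspb1 (4.8 CPM per kb), Hspa1b (2.10 CPM per kb) and Hspa1a (0.287 CPM per kb). In PF livers the ranges of neighbours in this order overlapped, except between Hspd1 and Hspe1, Hspe1 and Hsp90aa1, and Hsp90aa1 and Hsph1. In AF livers the order of the means changed at 3 places. Hspd1 (185 CPM per kb) stood above Hspa8 (173 CPM per kb), Bag3 (11.3 CPM per kb) stood above Hsph1 (9.86 CPM per kb), and Hspb1 (13.7 CPM per kb) stood above these last genes and Dnajb1 (6.94 CPM per kb). The levels of different genes were not tested against each other. These levels are approximate, since reads that fit several genes may have been lost. The share of 50-base stretches found in other genes was 66.3% for Hspa1a, 50.1% for Hspb1, 47.5% for Hsp90aa1, 42.1% for Hspd1, 22.8% for Hspe1, 0.412% for Dnajb1 and 0% for Hsph1 and Bag3. For Hspb1 the matching gene was foremost the pseudogene Hsp25-ps1, which had 0 counts in the 12 livers.

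Ratios of the counts of 2 genes in the same liver do not depend on the scaling of the libraries. Of 5 such ratios, those of Hspd1 over Hspe1 and Hspd1 over Hspa9 differed between the groups. Hspd1 over Hspe1 was 3.72, 3.70, 3.63, 3.71 and 3.82 in PF and 4.05, 4.01, 4.33, 3.78, 4.48, 4.31 and 4.52 in AF livers. All AF livers but replicate 4 were above every PF liver, and the ratio was 1.13 times that of PF. The exact two-sided permutation test of the mean log2 ratio gave a difference of 0.18 with p = 0.00505, which was 0.0158 after Benjamini-Hochberg adjustment over the 5 ratios. Hspa9 encodes mortalin, the HSP70 of the mitochondrial matrix that delivers imported proteins to HSP60. Hspd1 over Hspa9 was 0.728, 0.750, 0.719, 0.736 and 0.708 in PF and 0.544, 0.717, 0.643, 0.632, 0.639, 0.548 and 0.573 in AF livers. All AF livers but replicate 2 were below every PF liver, with a log2 difference of −0.25 (exact permutation p = 0.00631, adjusted 0.0158). So relative to Hspd1, Hspe1 was lower and Hspa9 was higher in AF livers.

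The other 3 ratios did not differ past the threshold. The inducible HSP70 genes together over Hspa8 lay between 0.00190 and 0.0113 in PF and between 0.00309 and 0.0102 in AF livers, with a log2 difference of −0.20 (exact permutation p = 0.657, adjusted 0.657). Inducible over constitutive HSP90, Hsp90aa1 over Hsp90ab1, lay between 0.162 and 0.193 in PF and between 0.123 and 0.281 in AF livers (log2 difference 0.09, exact permutation p = 0.573, adjusted 0.657). Cytosolic Hspa8 over Hspa5, the HSP70 of the endoplasmic reticulum, lay between 0.447 and 1.05 in PF and between 0.327 and 0.750 in AF livers (log2 difference −0.31, exact permutation p = 0.264, adjusted 0.440), and the difference ranged from −0.44 (without PF replicate 5) to −0.13 (without PF replicate 1) with libraries left out in turn.

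**Figure D3:**
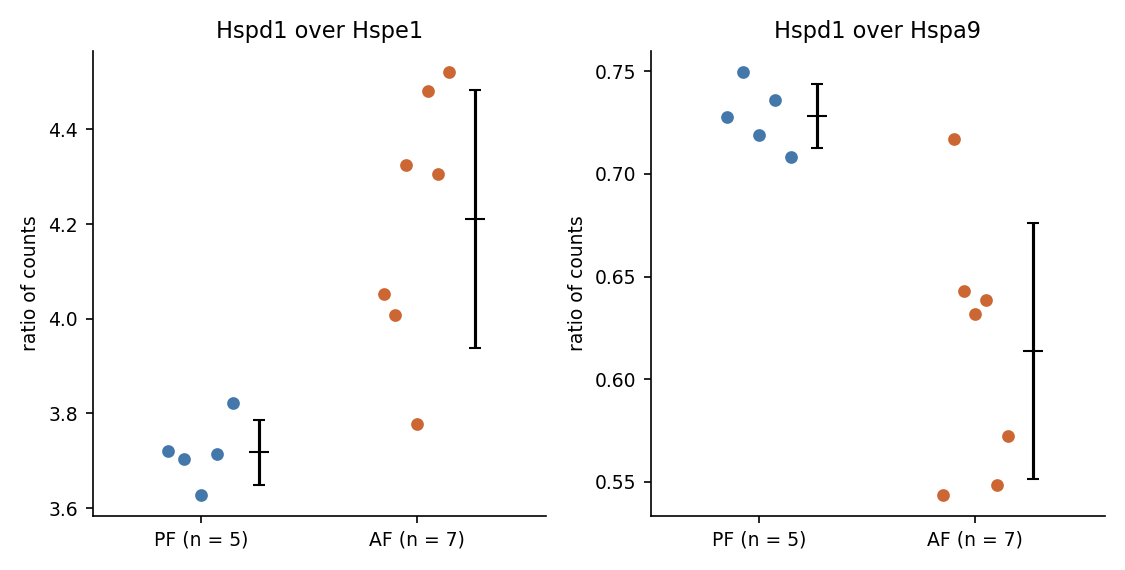
Ratio of counts in each liver for Hspd1 over Hspe1 (left) and Hspd1 over Hspa9 (right), with mean and SD beside the points of the 5 PF and 7 AF livers; the axes do not start at 0. On the left 6 of 7 AF livers lie above the PF range of 3.63 to 3.82, and on the right 6 of 7 lie below the PF range of 0.708 to 0.750.

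Of the 45 pairs of members, 40 (88.9%) had a positive Pearson correlation of log2 CPM over the 7 AF livers, with a median of 0.62. Among all pairs of 8337 other genes with a mean log2 CPM of 3 or more, 51.9% were positive over the same livers, with a median of 0.029. These shares are descriptions, since the pairs are not independent. The 5 negative pairs of members all involved Hspa1a, the gene with the fewest reads. After adjustment over the 45 pairs, Pearson correlations of 2 pairs were past the threshold in the exact permutation test. Hsph1 and Hsp90aa1 had r = 0.956 (exact permutation p = 0.00139, adjusted 0.0357) and Spearman rho = 0.964 (exact permutation p = 0.00278, adjusted 0.0417). Without the 2 livers farthest from the median of Hsph1, r was 0.869. Hspd1 and Hspe1 had r = 0.953 (exact permutation p = 0.00159, adjusted 0.0357) and rho = 0.857 (exact permutation p = 0.0238, adjusted 0.107), and r = 0.783 without the 2 farthest livers. Hspa1b with Hspd1 and Hspb1 with Dnajb1 passed by rank alone, each with rho = 0.964 (exact permutation p = 0.00278, adjusted 0.0417), and with r = 0.875 (exact permutation p = 0.00456, adjusted 0.0513) and r = 0.789 (exact permutation p = 0.0234, adjusted 0.104). For these pairs r was 0.656 and 0.772 without the 2 farthest livers. Hspa1a and Hspa1b had r = −0.50 (exact permutation p = 0.233, adjusted 0.349). The values of a liver share its library and its TMM factor, and the part of this in the correlations was not tested. No correlation was computed over the 5 PF livers. There PF replicate 3 had the lowest level of 8 of the 10 members, all but Bag3 and Hspe1, and PF replicate 2 had the highest level of 9, all but Hspa1a. Of all 14168 genes, PF replicate 3 was the lowest PF liver for 18.2% and PF replicate 2 the highest for 21.4%.

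**Figure D4:**
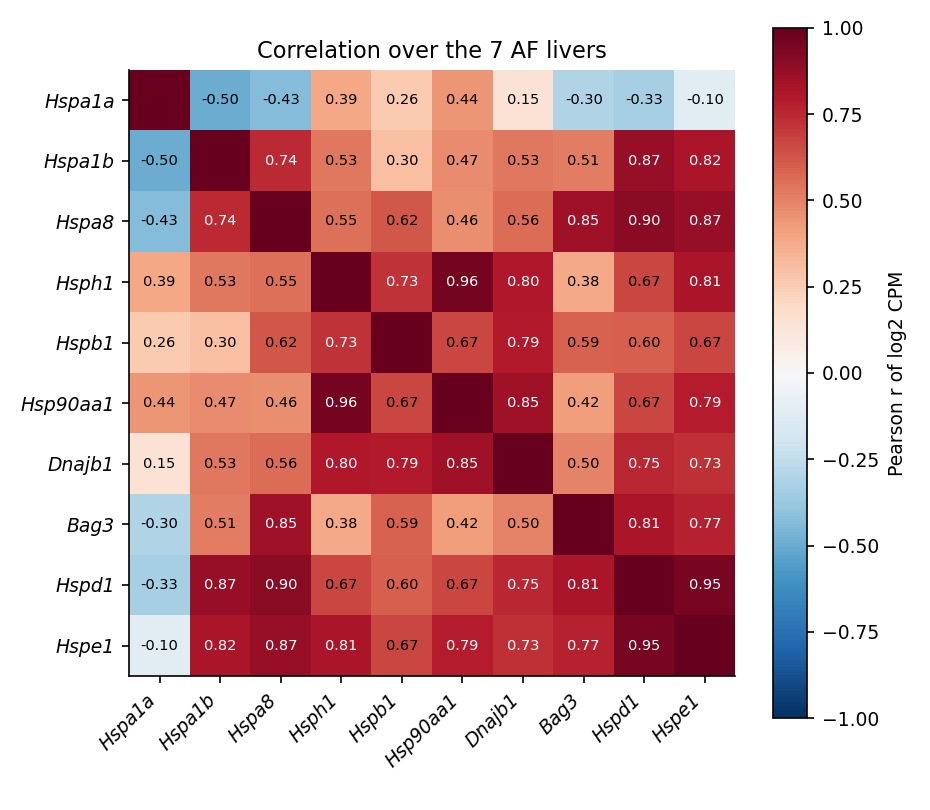
Pearson correlation of log2 CPM between the 10 genes over the 7 AF livers, with the value in each cell (red positive, blue negative). Apart from the row of Hspa1a all values are positive, and the highest are 0.96 for Hsph1 with Hsp90aa1 and 0.95 for Hspd1 with Hspe1.

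The genes most like the members over the AF livers were sought with the 10 members left out. Those named here were not in the lists of related genes given below. Among 8337 genes whose mean log2 CPM reached 3, the mean standardised profile of the 8 cytosolic members over the 7 AF livers correlated most with Prpf39, a splicing factor (r = 0.996), Tomm22, a receptor of the mitochondrial import pore (r = 0.981), Mettl2 (r = 0.980), Tmem199 (r = 0.979) and Brix1, which takes part in ribosome assembly (r = 0.977). For the pair of Hspd1 and Hspe1 they were Tm9sf2 (r = 0.985), Vamp7 (r = 0.984), Immp1l (r = 0.980), Ublcp1 (r = 0.979) and Rhot1 (r = 0.978). These are descriptions over 7 livers that share their library scaling, and they were picked as the highest of 8337 values.

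Related genes were grouped in lists, whose counts of calls stand against the shares over all genes, which were 22.0% higher and 17.8% lower on TMM scaling and 45.5% higher and 6.63% lower on library totals. Nothing particular to a list is drawn from these counts. The heat shock factors, the regulators of the members, come first. Of 5 listed genes 4 could be tested, with Hsf5 below the filter, and 1 was called. Hsf2, a factor that modulates HSF1, fell from 29.5 ± 3.12 CPM (SD, 5 PF livers) to 21.2 ± 4.23 CPM (SD, 7 AF livers), which is a log2 fold change of −0.47 (edgeR adjusted p = 0.0159), and on library totals it was −0.10 (edgeR adjusted p = 0.669). Hsf1 was at 8.19 ± 0.540 CPM (SD, 5 PF livers) against 9.56 ± 1.11 CPM (SD, 7 AF livers) (log2 fold change 0.22, edgeR adjusted p = 0.109), and on library totals it was called higher (0.59, edgeR adjusted p = 0.00558). Hsf4 had a log2 fold change of −0.40 (edgeR adjusted p = 0.286), and Hsbp1, which encodes a binding protein of HSF1, one of 0.16 (edgeR adjusted p = 0.0964), which on library totals was 0.51 (edgeR adjusted p = 0.00129). The list thus had 0 higher and 1 lower on TMM scaling and 2 higher and 0 lower on library totals. The activity of HSF1 is set on the protein, which these data do not measure.

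Other genes known to be induced by HSF1 were called in both directions. Of 14 tested, 1 was called higher and 4 were called lower on TMM scaling, with a median log2 fold change of −0.26, whereas on library totals 4 were called higher and 1 lower, and DESeq2 called 2 higher and 6 lower. The share lower on TMM scaling, 4 of 14, stands against 17.8% of all genes, and the 1 of 14 higher against 22.0%. Serpinh1, the collagen chaperone HSP47, rose from 6.87 ± 2.12 to 19.3 ± 8.01 CPM (log2 fold change 1.49, edgeR adjusted p = 0.00162), and all 7 AF livers were above every PF liver. Of the stellate cell and fibrosis markers given above, 5 of 6 were called higher in AF livers, against 22.0% of all genes. The part of these cells in the level of Serpinh1 was not tested. Dnaja1, a J-domain partner of HSP70, fell from 287 ± 27.2 to 181 ± 38.7 CPM (log2 fold change −0.67, edgeR adjusted p = 0.00330), with all 7 AF livers below every PF liver, and it was also called lower on library totals (−0.33, edgeR adjusted p = 0.0287). Dnajb4 (−0.52, edgeR adjusted p = 0.00654), Stip1, the scaffold between HSP70 and HSP90 (−0.38, edgeR adjusted p = 0.0250), and Fkbp4, an HSP90 cochaperone of steroid receptors (−0.37, edgeR adjusted p = 0.0131), fell on TMM scaling but were not called on library totals, where their log2 fold changes were −0.16, −0.02 and −0.01.

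The families around the members, 6 lists with 47 tested genes, had 8 lower and 1 higher on TMM scaling, against 17.8% and 22.0% of all genes, and 12 lower and 2 higher by DESeq2, against 20.7% and 23.3%. On library totals they had 2 lower and 14 higher, against 6.63% and 45.5%. Of 11 other cytosolic J-domain proteins, none was called higher and 3 lower, namely Dnaja1, Dnajb4 and Dnajb2 (−0.34, edgeR adjusted p = 0.0127), against 3 higher and 1 lower on library totals. Of 10 other HSP70 and HSP110 genes, only Hspa2, best known from the testis, was called lower (−0.84, edgeR adjusted p = 0.0144), whereas on library totals it was at −0.51 (edgeR adjusted p = 0.0735) and 2 others were called higher. Of 7 other nucleotide exchange factors and HSP70 cofactors, 2 were called lower, Bag4 (−0.87, edgeR adjusted p = 0.00125, on library totals −0.55 with an edgeR adjusted p of 0.00169) and St13 (−0.34, edgeR adjusted p = 0.0144, on library totals 0.01), while on library totals the counts were 4 higher and 1 lower. Of 13 HSP90 cochaperones, 1 was called higher, Unc45a (0.50, edgeR adjusted p = 0.0105), and 2 lower, Stip1 and Fkbp4, against 3 higher and 0 lower on library totals. Of the 3 other HSP90 genes, Hsp90ab1, Hsp90b1 and Trap1, edgeR called 0, with 0 at an unadjusted p under 0.05 and 0 by DESeq2, while Hsp90ab1 was called higher on library totals (0.39, edgeR adjusted p = 0.0225) and Trap1 was called lower without AF replicate 6. Of the 3 other small heat shock genes that could be tested, edgeR called 0, although 2 were at an unadjusted p under 0.05 and DESeq2 called 1 higher and 1 lower. On library totals 1 was called higher, Cryab (1.42, edgeR adjusted p = 0.0190), and without AF replicate 6 the counts were 1 higher and 2 lower.

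The cytosolic and mitochondrial folding machines are the closest comparison for the chaperonin pair. Of 14 subunits of TRiC, the chaperonin of the cytosol that folds actin and tubulin, and of its helper prefoldin, none was called higher and 4 were called lower, namely Cct8 (−0.55, edgeR adjusted p = 0.000516), Tcp1 (−0.55, edgeR adjusted p = 0.00187), Cct6a (−0.27, edgeR adjusted p = 0.0219) and Cct4 (−0.24, edgeR adjusted p = 0.0490), against 22.0% and 17.8% of all genes. Their log2 fold changes on library totals were −0.20, −0.20, 0.09 and 0.13, and there 5 subunits were called higher and 0 lower, against 45.5% and 6.63% of all genes. Of 14 other mitochondrial chaperones and proteases, 4 were called higher and 1 lower on TMM scaling, against 22.0% and 17.8% of all genes, and 9 were called higher and 0 lower on library totals, against 45.5% and 6.63%. Lonp1, the main protease of the matrix, rose from 87.6 ± 8.28 to 150 ± 35.7 CPM (log2 fold change 0.78, edgeR adjusted p = 0.00359). Hscb, a cochaperone of iron-sulfur cluster assembly (0.71, edgeR adjusted p = 0.00529), Clpb, a disaggregase (0.64, edgeR adjusted p = 0.00372), and Htra2, a protease of the intermembrane space (0.40, edgeR adjusted p = 0.00677), rose too. All 4 were also called higher on library totals. The lower one was Yme1l1, a protease of the inner membrane (−0.39, edgeR adjusted p = 0.0174, on library totals −0.04). With the median of all genes subtracted, the median of this list was 0.09 on TMM scaling and 0.08 on library totals, and it lay between 0.029 (without AF replicate 6) and 0.14 (without AF replicate 3) when libraries were left out in turn.

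Immediate early genes, which like Hspa1a and Hspa1b respond within a short time to handling and stress, were called at shares near those of all genes, with 3 of 11 against 22.0% higher and 2 of 11 against 17.8% lower. The 3 higher were Atf3 (log2 fold change 4.15, edgeR adjusted p = 0.00155), Myc (2.16, edgeR adjusted p = 0.00169) and Ier3 (1.75, edgeR adjusted p = 0.0109), and the 2 lower were Zfp36 (−1.77, edgeR adjusted p = 0.00153) and Fos (−1.63, edgeR adjusted p = 0.0440). On library totals Fos was at −1.19 (edgeR adjusted p = 0.110), and 3 were higher and 1 lower. All 7 AF livers were above every PF liver for Atf3, Myc and Ier3, and without AF replicate 1 the log2 fold changes of Atf3 and Ier3 were 3.05 and 1.16.

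The calls among the listed genes were also examined with each library left out in turn, an alternative chosen after seeing the data. Of the 25 called genes, 21 were called in every such fit. Stip1 was not called without PF replicate 2, PF replicate 4 or AF replicate 3, and Cct6a was not called without PF replicate 4. Cct4 was called in 3 of 12 fits (edgeR adjusted p 0.0181 to 0.122) and Fos in 4 of 12 (edgeR adjusted p 0.0193 to 0.133). The number of genes called lower ranged from 1 to 5 among the HSP90 cochaperones, from 3 to 6 among the HSF1 targets, from 3 to 5 among the J-domain proteins, from 0 to 2 among the small heat shock genes and from 1 to 3 among the mitochondrial genes. The number called higher ranged from 0 to 1 among the heat shock factors and among the small heat shock genes. Among the HSP90 cochaperones and the HSF1 targets it ranged from 1 to 2. Over all genes the number called changed too. Lower calls ranged from 2119 of 13961 (without AF replicate 3) to 2923 of 14103 (without AF replicate 6). Higher calls ranged from 2520 of 14441 (without PF replicate 2) to 3574 of 14103 (without AF replicate 6).

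**Figure D5:**
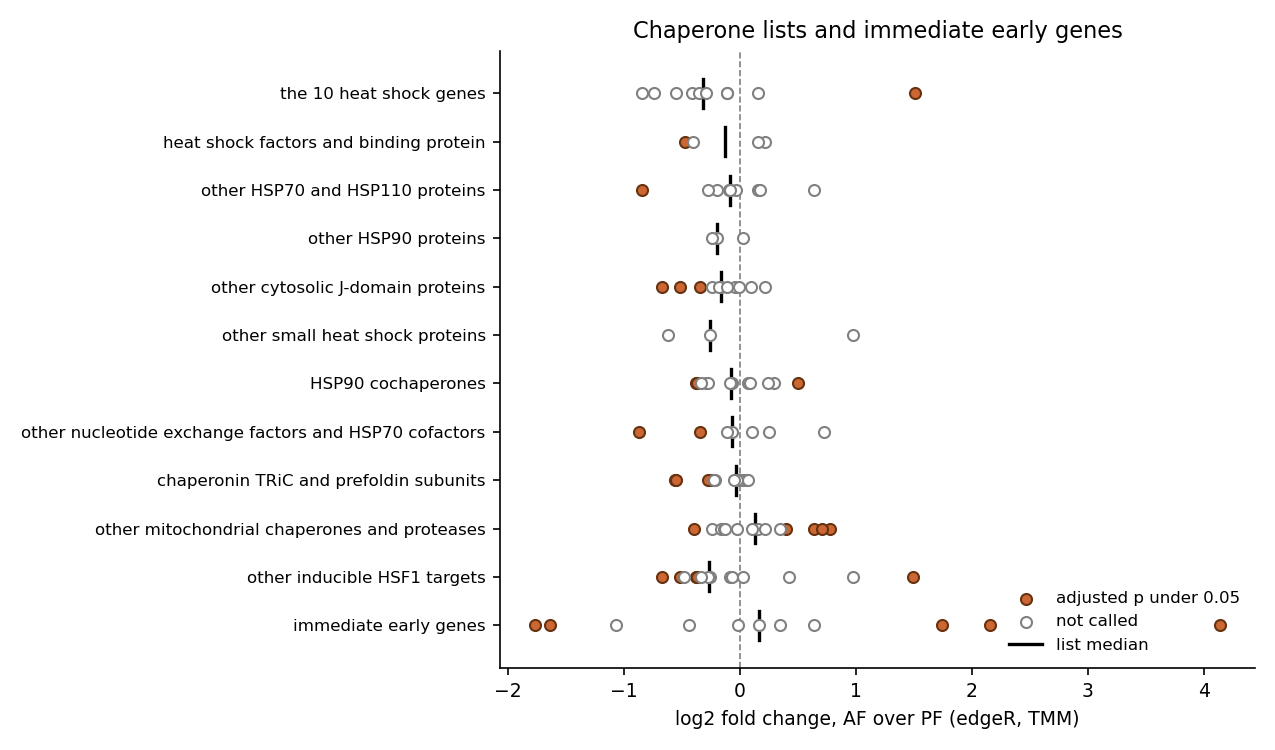
Log2 fold change of AF over PF on TMM scaling for every tested gene of the heat shock response, of 10 related lists and of the immediate early genes, with filled points for genes past the threshold and a bar at each median. In the top row 1 of 10 points is filled, Hspb1 at 1.51, and the widest row is that of the immediate early genes, from −1.77 to 4.15.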

How the data were processed

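RNA of 12 whole livers (5 PF, 7 AF) was sequenced by the authors after oligo(dT) enrichment. The submitters' processing notes name FastQC 0.10.1, TopHat2 2.0.13, HTSeq 0.10.0 and GRCm38. The deposited table holds the number of reads on each Ensembl gene as raw counts, 24129900 to 30578639 in a library. Strand setting, annotation and read length of the counting are not given in the sources used here. Columns were matched to mice by group and replicate number, and 54165 of 54232 genes were named by GENCODE M21.

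Counts were filtered with filterByExpr, scaled by TMM and tested with edgeR 4.0.16 (quasi-likelihood, AF against PF, no covariates) in R 4.3.3, with Benjamini-Hochberg adjustment over 14168 genes and a threshold of 0.05. Log2 CPM used a prior count of 2. Exact permutation tests ran over every assignment of the livers, and ratios used counts + 0.5. Intervals are at 95%. DESeq2 1.42.0 and limma 3.58.1 (voom) were alternatives. The fits were tested on simulated data in which few genes were changed, as many raised as lowered. That test does not cover the dependence on scaling seen here. Alternatives covered tool, scaling, filter, replicate block, pseudocount, each library left out and Hspa1a and Hspa1b added together. The p-values measure the spread between mice.

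The members and gene lists were chosen with earlier results of these data known. Named were the members, the heat shock factors, up to 4 called genes with the largest changes per list, the genes of the ratios, and 5 genes most like each of the profiles. Yme1l1, Fos, Hsp90b1, Trap1 and Cryab are outside this rule and were named after their values were seen. The lowest ratio of the difference between libraries of a group to counting noise was 21.1, so no library was repeated. The remaining experiments of the study were not analysed here.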

Additional observations from a re-analysis of the deposited data

Results flagged for a closer look

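For 3 of 30 sets of AF or PF values, the highest or lowest liver stood apart from the others by Dixon's criterion at 95%, and by chance about 1 in 20 such sets would, or 1.5 of 30. All 3 were the highest value of the AF group and came from AF replicate 5. Hspb1 was not among them. Hspa1b was at 8.63 CPM in AF replicate 5, where the next AF liver had 3.41 CPM. Dnajb1 was at 29.0 CPM in AF replicate 5, where the next AF liver had 23.4 CPM. The log2 ratio of Hspa1a and Hspa1b together over Hspa8 was −6.62 in AF replicate 5, and in PF livers it ranged from −9.01 to −6.47. This liver also had the highest AF levels of Hspa1b, Hsph1, Hspb1, Hsp90aa1, Dnajb1, Hspd1 and Hspe1. Its share of mitochondrial reads was 7.61%, the highest of the 12 livers, against a lowest of 3.83%. The part of this in its levels was not tested. AF replicate 6 stood apart from the other AF livers in a principal component analysis of the 12 livers. On component 1 (59.9% of the variance) it was at −7.73, against 21.7 to 83.9 in the other AF livers and −73.3 to −52.5 in PF. On component 2 AF replicates 6 and 7 were lowest, at −50.9 and −40.2.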

How the results depend on the processing

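Hspb1 was called higher in AF livers in all 21 alternatives, with log2 fold changes from 1.24 to 1.88 and adjusted p from 1.43e-05 to 0.0136. On library totals the log2 fold changes of Dnajb1 (0.027), Bag3 (0.23), Hspd1 (0.24) and Hspe1 (0.062) changed sign, 2 members were called higher (Hspb1 and Hsp90aa1), and over all genes 6452 were higher and 939 lower, in place of 3116 and 2518. The upper quartile moved the median of all genes to 0.09. The count of members lower, 0 by edgeR, was 2 by DESeq2, where 20.7% of all genes were lower. It was 1 by limma-voom with sample quality weights (Hspe1, adjusted p = 0.00866), where 3972 of 14168 genes were higher and 3541 lower. Over libraries left out in turn it ranged from 0 to 3, while the count over all genes ranged from 2119 to 2923. Leaving out libraries, the log2 difference of the ratio of Hspa1a and Hspa1b over Hspa8 ranged from −0.56 to 0.075 (highest without PF replicate 2), and that of Hsp90aa1 over Hsp90ab1 ranged from −0.0065 (without AF replicate 5) to 0.19. The differences of Hspd1 over Hspe1 (0.16 to 0.20, exact permutation adjusted p 0.0162 to 0.0379) and of Hspd1 over Hspa9 (−0.29 to −0.23, 0.0108 to 0.0379) held in each. The causes of these shifts were not tested. The fit with the replicate block compared the groups within replicate numbers. Numbers 6 and 7 occur only in AF, so AF replicates 6 and 7 had no PF partner there. The shifts in this fit cannot be told apart from the effect of these 2 livers dropping out of the comparison. With the replicate block 1 member was higher and 0 were lower, with 3395 genes higher and 2939 lower. Of the mitochondrial list 5 were lower in place of 1, with its median relative to all genes at −0.019 in place of 0.09. Of the HSF1 targets 7 were lower in place of 4. Of the small heat shock genes 2 were lower in place of 0 (median log2 fold change −0.66 in place of −0.26). Of the other HSP90 genes 1 was lower in place of 0 (median −0.34 in place of −0.19). Lower calls also became 2 in place of 1 for other HSP70 and HSP110 genes and 3 in place of 2 for HSP90 cochaperones. Hspa1a was at −0.36 and Bag3 at −0.23, not past the threshold. Same-numbered libraries deviated with correlations of −0.075 to 0.117. The labels do not say whether the numbers pair the mice, and these values cannot decide it, since paired mice need not deviate alike. Of 10 libraries, 2 were closest to the one of their own number. Depth limits Hspa1a most, with as few as 4 reads per library.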
